A study of Mus musculus with 10 samples.

Results

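The comparison described here is that of CD4 CD8 double-positive (DP) thymocytes that had lost both E2A and HEB (DKO) with DP thymocytes that had lost E2A alone (E2AKO). It answers what HEB sustained in cells that no longer had E2A. Its differences come from 5 of the 10 arrays of the series, 3 DKO and 2 E2AKO, while the spread was estimated over all 10. The comparison covers 13138 of the 19937 genes that could be named on the array. A gene entered when its brightest probe set exceeded the 40th percentile of an array in at least 2 of the 10 arrays. All mice were 8 weeks old, and each array read the RNA of DP cells sorted from a single mouse, with about 1000000 cells, 6 µg of RNA and a purity above 98%. The 4 genotypes were WT (wild-type alleles with cd4-cre+, 3 arrays), E2AKO (E2Aflox/flox Cd4-cre+, 2 arrays), HEBKO (HEBflox/flox cd4-cre+, 2 arrays) and DKO (E2Aflox/flox HEBflox/flox cd4-cre+, 3 arrays). Every group, wild type included, therefore carried the Cre transgene. Cre driven by Cd4 sequences acts only once thymocytes switch on that transgene, so that earlier stages developed with E2A and HEB intact. Because RNA was read from whole sorted populations, fewer cells that express a gene and less RNA of that gene per cell cannot be told apart.

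E2A, the product of Tcf3, and HEB, the product of Tcf12, are basic helix-loop-helix factors known as E proteins. They pair with each other or with themselves and bind short DNA motifs called E-boxes, and Id proteins block that binding by pairing with E proteins without contacting DNA. In DP thymocytes, E proteins are known for keeping the recombination genes on and for holding cells at the DP stage until the T cell receptor (TCR) signals.

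Hybridisation intensities were compared on the log2 scale, where 1 unit is a doubling. The median array intensity lay between 94.29 and 97.58 in the 5 arrays. Across the genes tested, the E2AKO arrays correlated at 0.985 with each other, the DKO arrays at 0.986 to 0.989, and DKO with E2AKO arrays at 0.963 to 0.971. Of lists of genes that mark other cells, 5 of 7 B cell and 8 of 10 myeloid genes lay below the 40th percentile in all 5 arrays. Smaller shares did so in the other lists: 4 of 8 dendritic, 2 of 8 thymic epithelial, 1 of 4 erythroid, 1 of 10 double-negative thymocyte and 0 of 5 gamma delta T cell genes. The summed intensity was 471.7 to 530.5 in E2AKO and 406.6 to 458.8 in DKO for B cell genes, and 593.8 to 677.1 against 542.2 to 584.5 for myeloid genes. The S phase list (26 genes) lay 0.26 above the E2AKO mean in E2AKO 1 and 0.26 below it in E2AKO 2, and the mitosis list (22 genes) 0.32 above and 0.32 below. No gene of either list was called different between DKO and E2AKO. One of the 2 E2AKO mice and 2 of the 3 DKO mice were female by their sex-linked transcripts.

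Tcf12, which encodes HEB, read 12.00 and 11.87 in the 2 E2AKO arrays and 10.68, 10.73 and 10.71 in the 3 DKO arrays. All DKO values lay below both E2AKO values. The difference was -1.23 ± 0.12 (SE, limma adjusted p = 6.53e-05), so that DKO cells kept 42.7% of the E2AKO intensity. Tcf3, floxed in both genotypes, read 9.23 and 9.12 in E2AKO and 9.29, 8.93 and 8.94 in DKO, and the groups overlapped. Against 9.65, 9.85 and 9.63 in WT, Tcf3 in E2AKO differed by -0.54 ± 0.13 with no overlap, but did not pass over all genes (limma adjusted p = 0.998). No gene was called between E2AKO and WT by limma, where 418 had an unadjusted p under 0.05. That E2A was lost in the E2AKO arrays is thus taken from their labels. Whether the probes of either gene lie inside the deleted exons is not known here. Among the inhibitors, Id3 read 8.16 and 7.72 in E2AKO against 6.48, 6.49 and 6.59 in DKO, with no overlap. It fell by 1.42 ± 0.26 (limma adjusted p = 0.0052) and lost its call without E2AKO 1 (adjusted p = 0.0717). Id2 fell by 0.82 ± 0.15 (limma adjusted p = 0.00529) to values below the 40th percentile in all 3 DKO arrays, and lost its call without E2AKO 2 (adjusted p = 0.0733). The remaining E protein of the list, Tcf4, differed by -0.13 ± 0.11 and did not pass the test.

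Removing HEB from cells without E2A changed 1191 genes at a limma adjusted p under 0.05, 9.07% of those tested. Of these, 670 rose (5.1%) and 521 fell (3.97%), with 123 rises and 118 falls of at least 2-fold and 29 rises and 14 falls of at least 4-fold. Both E2AKO arrays were below the 40th percentile in 39 of the rises, and all 3 DKO arrays in 18 of the falls. The filter let in 28 genes below it in all 7 WT, E2AKO and HEBKO arrays, through DKO alone. Of these 28, 14 were called up, so rises and falls were not counted on equal terms. The median difference of all genes tested was 0.04. All 1191 called genes had DKO and E2AKO arrays that did not overlap, as had 40.2% of all genes tested. Leaving out E2AKO 1 reduced the count to 585, leaving out E2AKO 2 to 619 and leaving out DKO 3 to 775. Called in each of the 20 alternative settings, a 2-fold minimum aside, were 361 genes, of which 178 rose and 183 fell. Of the 121 genes named as called in the text, 76 kept their call whichever 1 of the 5 arrays was left out and 45 lost it at least once. Those lost without E2AKO 1 were Ccnd3, Ccr4, Cd160, Cd8a, Csk, Cxcr4, Fli1, Gata3, Gclm, Gimap4, Gimap6, Id3, Irf9, Itga4, Itgam, Klf2, Klf3, Mir342, Mir713, Notch3, Poll, Prkcq, Ptpn22, Ptpn6, Rasgrp1, Rbl2, Sh2d1a, Slc2a3, Socs1, Stat5b, Trp53inp1 and Xrcc6. Many of these were lost without E2AKO 2 as well, and so were Aqp11, Cd247, Cd69, Cdk6, Cldn4, Egr1, Epcam, Id2, Il21r, Ldha, Mir680-2, Sit1 and Trav7n-5. Leaving out a DKO array ended no call that was not also ended by leaving out an E2AKO array.

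**Figure D1:**
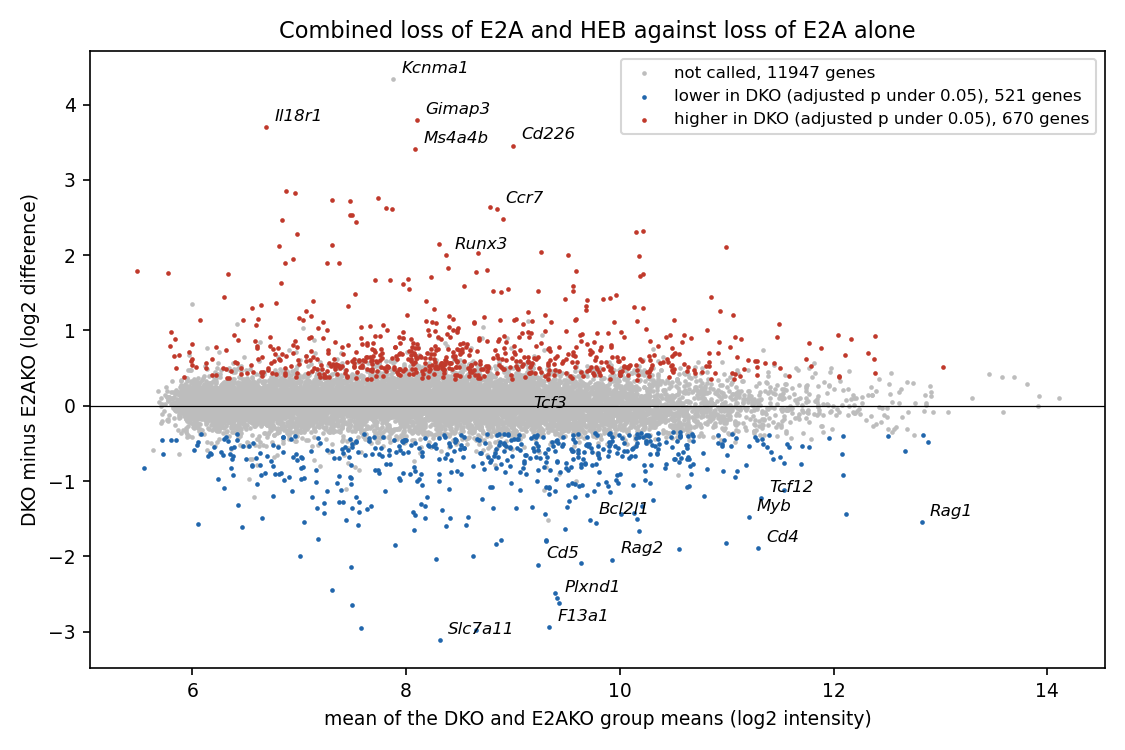
Difference between DKO and E2AKO (log2, vertical) against the mean of the group means (log2 intensity, horizontal) for 13138 genes, 1 point per gene. Red points are the 670 genes called higher in DKO and blue points the 521 called lower. The unlabelled red points above 2 include Il7r and S1pr1, and the grey point at the top is Kcnma1, which was not called because 1 DKO array was low.

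The largest falls included the precursor genes of a microRNA pair, whose mature sequences are shown because they share a seed. The hairpins lie 97 bases apart on the plus strand of chromosome 1 (GRCm38.p6), Mir181a-1 at chr1:137966455-137966541 and Mir181b-1 at chr1:137966639-137966718. The sequences are from RefSeq, written 5′ to 3′, with the seed (bases 2 to 8) in capitals.
mmu-miR-181a-5p: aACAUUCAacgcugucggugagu
mmu-miR-181b-5p: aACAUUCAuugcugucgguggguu
miR-181a is known to raise the sensitivity of thymocytes to TCR ligands by lowering phosphatases of the signalling pathway. Mir181a-1 read 8.85 and 9.26 in E2AKO and 5.74, 6.60 and 5.97 in DKO. Mir181b-1 read 10.34 and 10.92 in E2AKO and 7.64, 8.51 and 8.30 in DKO. Neither gene had overlapping groups, and DKO 2 was the highest of the DKO arrays for both. Mir181a-1 fell by 2.95 ± 0.35 (limma adjusted p = 0.000276) and Mir181b-1 by 2.48 ± 0.28 (adjusted p = 0.000223), leaving 12.96% and 17.92% of the E2AKO intensity. Mir181a-1 was below the 40th percentile in 2 DKO arrays, so its fall may be understated. The probes read precursor RNA, and mature miRNA was not measured. The paralogous hairpins Mir181a-2, Mir181b-2, Mir181c and Mir181d, looked up after these values were seen, differed by -0.53, -0.53, -0.10 and -0.26 and did not pass the test. Of 112 miRNA genes tested, 5 fell (4.5%, against 3.97% of all genes) and 1 rose, where 5.1% of all genes rose. Besides the pair, Mir128-2, Mir680-2 and Mir713 fell by 0.70, 0.51 and 0.55, and Mir342 rose by 0.74.

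Genes of the DP stage gave more falls than any other list. All lists were chosen with earlier results of these data known, so their counts and medians describe the members and test no stage. The counts of every list stand beside the 5.1% of all genes tested that rose and the 3.97% that fell. Of 27 tested members of that list, 16 fell, 1 rose (Sh2d1a, a signalling adaptor, by 0.56 ± 0.12) and 10 did not pass, and the list's median difference was -0.91 against 0.04 for all genes. In the DKO arrays the list's median lay 1.17, 0.65 and 0.77 below the E2AKO mean. Plxnd1, a semaphorin receptor that guides thymocytes from cortex to medulla, read 10.70 and 10.67 in E2AKO and 8.05, 8.40 and 7.95 in DKO. The groups lay far apart, and the difference of -2.56 ± 0.14 (limma adjusted p = 1.55e-06) left 17.0% of the E2AKO intensity. Arpp21, an RNA-binding protein gene, fell by 1.90 ± 0.20 and Ets2, an ETS family factor, by 1.82 ± 0.18. Aqp11, an aquaporin gene, differed by -2.08 ± 0.46, but its DKO arrays spread from 7.52 to 9.31 and the call was lost without E2AKO 2 (adjusted p = 0.144).

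The coreceptors of the DP stage moved unequally. Cd4 read 12.29 and 12.19 in E2AKO and 10.21, 10.64 and 10.20 in DKO, with no overlap. It fell by 1.89 ± 0.15 (limma adjusted p = 2.42e-05), leaving 27.0% of the E2AKO intensity. Cd8a read 12.997 and 13.08 against 12.57, 12.66 and 12.71, and fell by 0.39 ± 0.11 (adjusted p = 0.0439), a call that was lost in 10 of the 20 alternative settings, leaving out any 1 of the 5 arrays among them. Cd8b1 differed by the same -0.39 ± 0.12 and did not pass (adjusted p = 0.0587). 

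**Figure D2:**
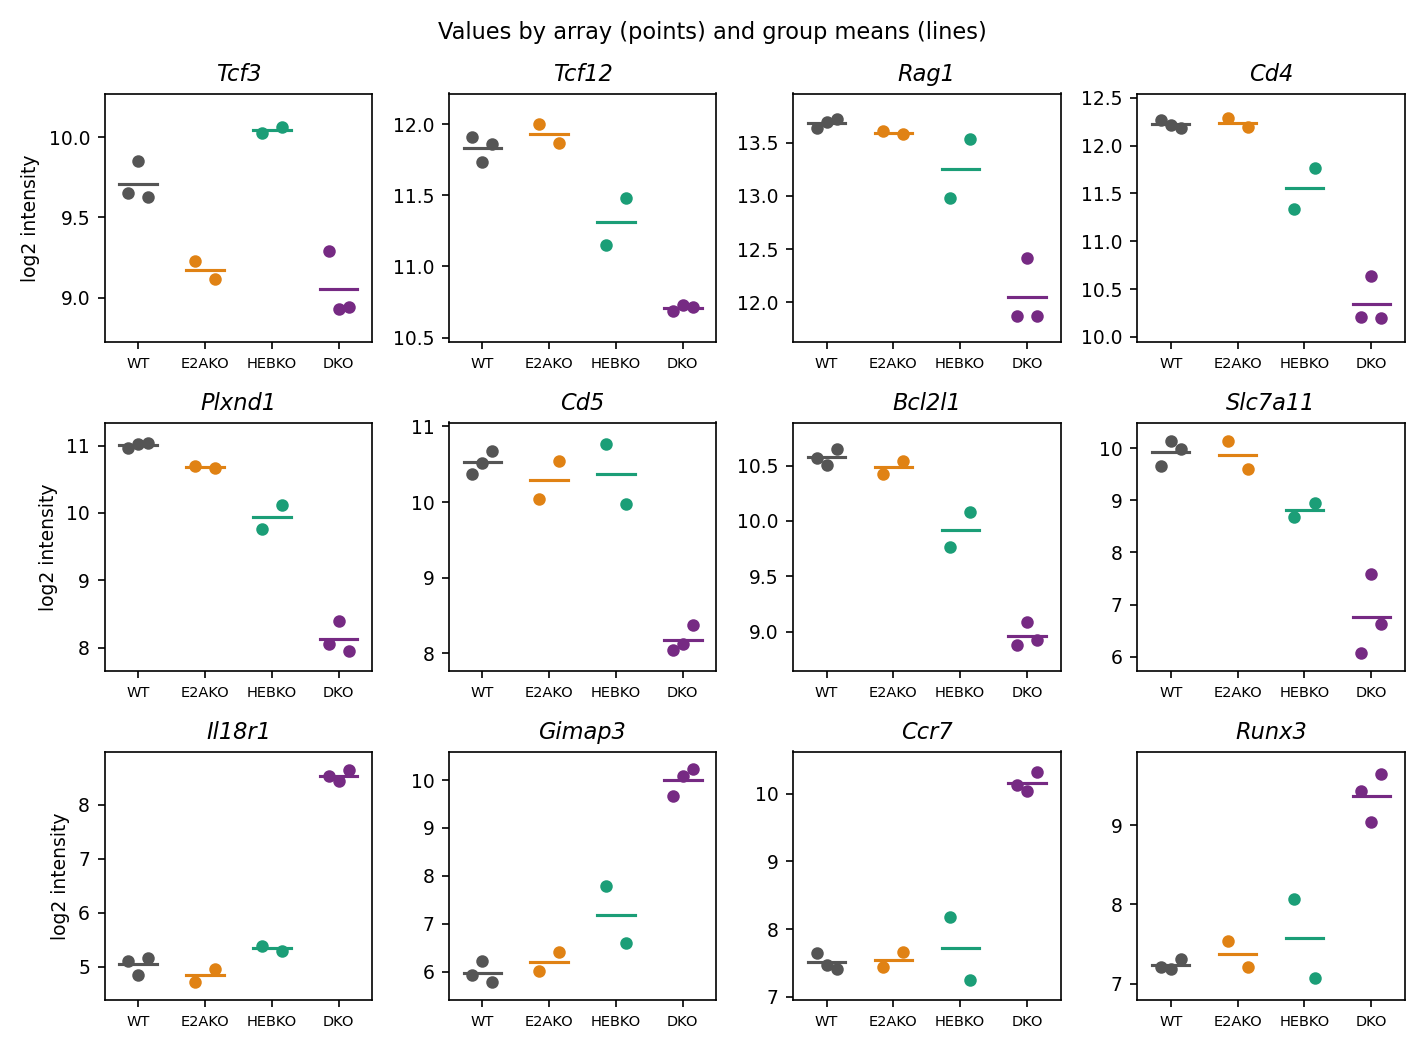
Log2 intensity of 12 genes in each of the 10 arrays, with 1 point per array and a line at each group mean. The DKO arrays lie below all E2AKO arrays for Tcf12, Rag1, Cd4, Plxnd1, Cd5, Bcl2l1 and Slc7a11 and above them for Il18r1, Gimap3, Ccr7 and Runx3, while Tcf3 overlaps.

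Recombination genes formed the next group. Of 15 tested genes that serve recombination of antigen receptor segments and the joining of DNA ends, 6 fell, 1 rose and 8 did not pass, with a median of -0.05. Rag1, a subunit of the recombinase that cuts antigen receptor loci, read 13.61 and 13.58 in E2AKO and 11.87, 12.41 and 11.86 in DKO. Its partner Rag2 read 10.97 and 10.93 in E2AKO and 8.93, 9.33 and 8.47 in DKO. No DKO array reached an E2AKO array for either gene. Rag1 fell by 1.55 ± 0.18 (limma adjusted p = 0.00027) and Rag2 by 2.04 ± 0.25 (adjusted p = 0.000343), leaving 34.2% and 24.2% of the E2AKO intensity. Lig4, the ligase that seals the broken ends, fell by 1.51 ± 0.13 (adjusted p = 3.43e-05). Dntt, which adds nucleotides at the junctions, fell by 0.91 ± 0.16, Hmgb1, a DNA-bending cofactor of the recombinase, by 0.87 ± 0.13, and Xrcc6, which encodes the Ku70 end-binding protein, by 0.53 ± 0.15. The member that rose was Poll, a gap-filling polymerase gene that was below the 40th percentile in both E2AKO arrays (0.52 ± 0.11). The other 8, Xrcc5 of the same repair pathway (0.18) among them, did not pass.

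The promoters of 3 of these genes are shown because E proteins bind E-boxes and the genes lie at the ends or at the centre of the change: Slc7a11 had the largest fall, Rag1 is a recombinase gene and Gimap3 had the largest called rise. Each run is the 250 bases before the RefSeq start (GRCm38.p6, minus strand, 5′ to 3′ in the gene's direction), with every E-box of the letters CANNTG in capitals. The positions are chr3:50443614-50443863 for Slc7a11, chr2:101649533-101649782 for Rag1 and chr6:48770852-48771101 for Gimap3.
Slc7a11: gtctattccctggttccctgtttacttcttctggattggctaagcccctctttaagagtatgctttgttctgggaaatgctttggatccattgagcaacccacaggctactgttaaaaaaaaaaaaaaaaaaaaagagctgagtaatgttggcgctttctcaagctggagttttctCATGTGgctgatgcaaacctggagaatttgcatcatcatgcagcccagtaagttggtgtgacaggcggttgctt
Rag1: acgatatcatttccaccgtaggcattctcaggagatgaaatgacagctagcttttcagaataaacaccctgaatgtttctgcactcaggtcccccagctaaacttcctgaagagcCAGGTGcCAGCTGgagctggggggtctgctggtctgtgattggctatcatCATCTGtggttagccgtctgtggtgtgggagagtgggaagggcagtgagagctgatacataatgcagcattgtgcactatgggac
Gimap3: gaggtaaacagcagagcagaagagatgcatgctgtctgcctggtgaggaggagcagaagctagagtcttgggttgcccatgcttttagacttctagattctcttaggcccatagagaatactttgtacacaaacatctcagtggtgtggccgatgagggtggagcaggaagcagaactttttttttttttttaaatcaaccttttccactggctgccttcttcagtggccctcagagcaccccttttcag
The Rag1 window holds 3 such matches, CAGGTG beginning 135 bases, CAGCTG 128 bases and CATCTG 85 bases before the start. The Slc7a11 window holds 1 (CATGTG) and the Gimap3 window 0. In windows of 300 bases that also take in 50 bases after the start, CAGCTG or CAGGTG, read on both strands, occurred in 37.2% of 586 windows of 413 called-down genes and in 32.3% of 724 windows of 562 called-up genes. The shares were 31.9% of 13111 windows for the genes tested and 32.9% of all 32851 windows. For the looser CANNTG, which contains both, the shares were 64.8% for falls, 69.6% for rises, 65.1% for genes tested and 72.3% for all windows. A split at 2-fold, made after these shares were seen, gave CAGCTG or CAGGTG in 36.0% of the windows of falls and 42.4% of the windows of rises. A match of letters is not a bound site.

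Genes that TCR signals induce and negative regulators of TCR signalling were read as lists that share Cd5 and Dusp6. Signalling itself was not measured. Of 21 tested TCR-induced genes, 11 fell, 1 rose and 9 did not pass (median -0.56), although only 6 fell without E2AKO 2. Cd5, a surface receptor that damps TCR signals and whose level tracks their strength, read 10.04 and 10.54 in E2AKO and 8.05, 8.12 and 8.38 in DKO. The DKO arrays all lay below the lower E2AKO array. The fall was 2.11 ± 0.22 (limma adjusted p = 0.000124), leaving 23.2% of the E2AKO intensity. Nr4a1, an orphan nuclear receptor gene switched on by TCR signals, fell by 1.78 ± 0.27 (adjusted p = 0.00154) from 9.79 and 9.76 to 7.98, 7.95 and 8.07. Dusp6, a phosphatase of the ERK kinases, fell by 1.41 ± 0.18, and Egr1 and Egr2, early growth response factors, fell by 1.28 ± 0.25 and 1.27 ± 0.21. Cd69, an early activation marker that holds cells in the thymus, fell by 1.31 ± 0.29, with DKO arrays spread from 6.85 to 8.03. The member that rose was Myc, the growth regulator, at 7.66 and 7.32 in E2AKO and 9.04, 8.52 and 9.10 in DKO (1.40 ± 0.22, adjusted p = 0.0019).

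Among 21 negative regulators of TCR signalling, 8 fell, 2 rose and 11 did not pass (median -0.05), and 5 fell without E2AKO 2. Besides Cd5 and Dusp6, Cd6, a scavenger-family receptor next to Cd5 in function, fell by 1.64 ± 0.12 (limma adjusted p = 8.85e-06) from 10.18 and 10.43 to 8.77, 8.64 and 8.60. Sla2 and Sit1, which encode inhibitory adaptors, fell by 0.78 ± 0.12 and 0.71 ± 0.17. The 2 that rose were the phosphatase genes Ptpn22 (0.54 ± 0.13) and Ptpn6 (0.45 ± 0.12).

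The receptor and its proximal kinases showed smaller differences. Of 17 tested genes, 2 fell, 2 rose and 13 did not pass (median -0.02), where 9.07% of all genes were called. Cd247, the zeta chain of the TCR complex, fell by 0.66 ± 0.11 and Rasgrp1, which links the receptor to Ras, by 0.43 ± 0.10, while Prkcq, protein kinase C theta, rose by 0.59 ± 0.12 and Csk, an inhibitory kinase, by 0.46 ± 0.11. Cd3e differed by -0.20 ± 0.11 and Ptcra, the pre-TCR alpha chain, by -0.21 ± 0.15, and neither passed.

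Listed genes of mature single-positive cells and of thymic egress mostly moved in the opposite direction to the DP list. This list, too, was chosen with earlier results of these data known. Of 25 tested, 18 rose, 1 fell (Klf3, a Krüppel-like factor, by 0.67 ± 0.15) and 6 did not pass, with a median of 1.21. The list's median lay 1.10, 1.09 and 1.33 above the E2AKO mean in the 3 DKO arrays and within 0.11 of it in the E2AKO arrays. Ccr7, the chemokine receptor that draws thymocytes to the medulla, read 7.44 and 7.65 in E2AKO and 10.12, 10.03 and 10.32 in DKO. S1pr1, the sphingosine receptor needed to leave the thymus, read 6.19 and 6.05 in E2AKO and 9.45, 8.04 and 9.03 in DKO. Il7r, the IL-7 receptor alpha chain, read 5.87 and 6.54 in E2AKO and 8.55, 8.55 and 9.12 in DKO. For none of the 3 did a DKO array overlap an E2AKO array, and DKO 2 was the lowest DKO array for Ccr7 and S1pr1. The rises were 2.61 ± 0.21 (limma adjusted p = 2.42e-05), 2.72 ± 0.33 (adjusted p = 0.000314) and 2.53 ± 0.34 (adjusted p = 0.000722), or 6.10-, 6.60- and 5.79-fold. S1pr1 and Il7r were each below the 40th percentile in 1 E2AKO array, so those folds may be understated.

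Gimap3, a GTPase gene of lymphocyte survival, had the largest called rise. It read 6.01 and 6.41 in E2AKO and 9.67, 10.09 and 10.23 in DKO, with no overlap, a rise of 3.79 ± 0.29 (limma adjusted p = 1.6e-05) or 13.8-fold. One E2AKO array was below the 40th percentile, so this fold may be understated too. Ms4a4b, a membrane protein gene of mature T cells, read 6.16 and 6.61 in E2AKO and 9.77, 9.35 and 10.27 in DKO, a rise of 3.41 ± 0.35 (adjusted p = 0.000124). Foxo1 and Klf2, which encode factors that drive egress and homing receptors, rose by 1.52 ± 0.21 and 0.91 ± 0.19. The Gimap genes did not move alike: Gimap4, Gimap6, Gimap7 and Gimap8 rose by 1.83, 0.84, 1.68 and 1.33, whereas Gimap1 and Gimap5, at 0.29 and 0.49, did not pass.

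**Figure D3:**
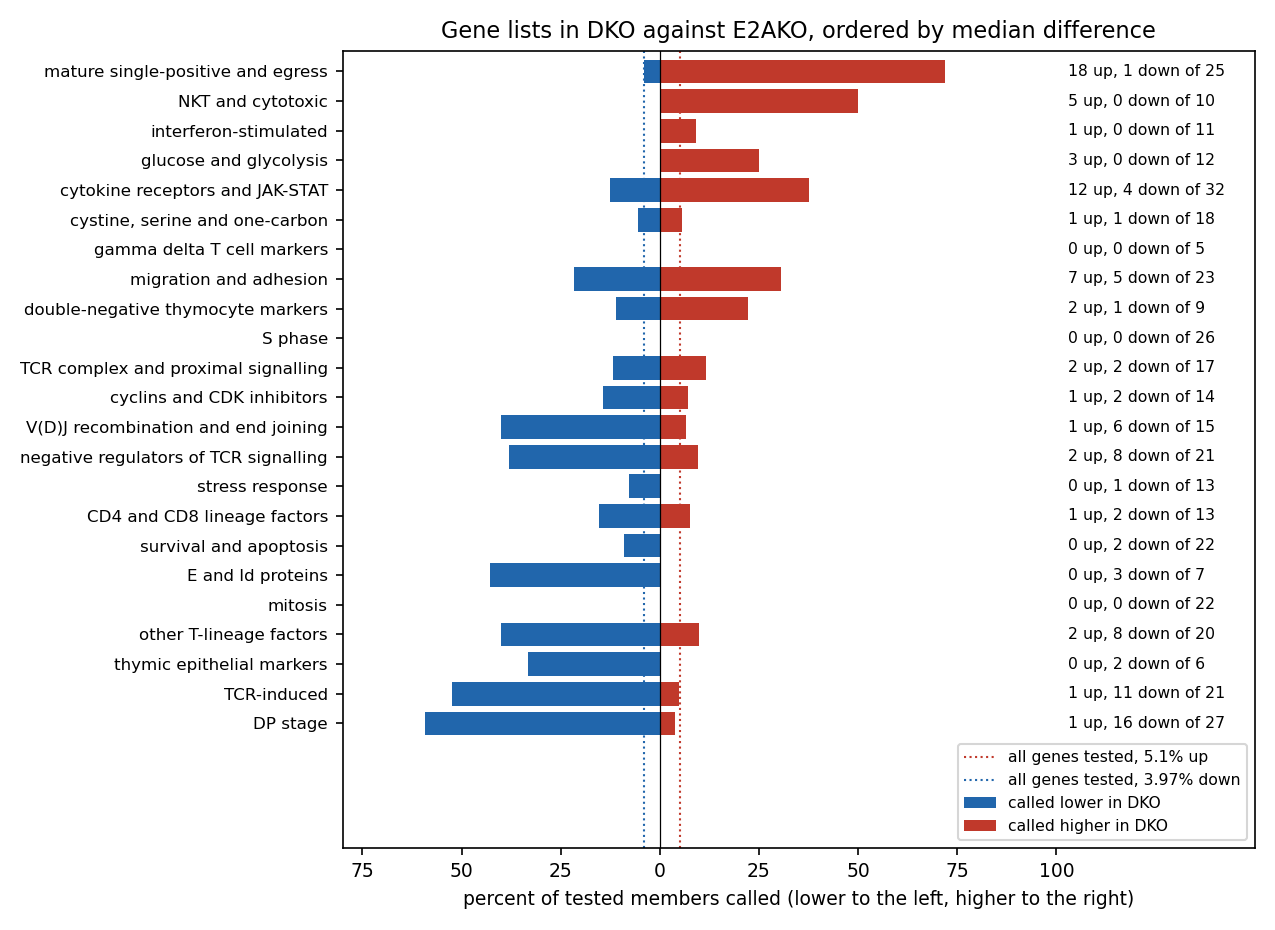
Percent of the tested members of each list that were called lower (blue, to the left) or higher (red, to the right) in DKO than in E2AKO, for lists with at least 5 tested members, ordered by median difference, with counts at the right. Dotted lines mark the shares over all genes tested, 5.1% up and 3.97% down. The lists were chosen with earlier results of these data known, so the bars are a description and not a test. The DP stage list has 16 of 27 members to the left and the mature single-positive list 18 of 25 to the right.

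Cytokine receptors supplied several of the largest rises. Of 32 tested receptor and JAK-STAT genes, 12 rose, 4 fell and 16 did not pass (median 0.17), and 6 rose without E2AKO 1 and 7 without E2AKO 2. Il18r1, the ligand-binding chain of the IL-18 receptor, read 4.73 and 4.96 in E2AKO, both below the 40th percentile, and 8.53, 8.45 and 8.64 in DKO. This 12.99-fold rise (3.70 ± 0.12, limma adjusted p = 2.84e-08) may be understated. Its coreceptor gene Il18rap rose by 1.76 ± 0.16. Both genes were below the 40th percentile in all 7 WT, E2AKO and HEBKO arrays and entered the test through their DKO values alone. Il12rb2, the signalling chain of the IL-12 receptor, read 6.75 and 6.39 in E2AKO and 9.13, 9.01 and 9.39 in DKO and rose by 2.61 ± 0.21. Il2ra, the IL-2 receptor alpha chain, rose by 1.67 ± 0.22, and Il10ra, a chain of the IL-10 receptor, by 0.93 ± 0.17. The falls were Il4ra, a receptor chain of IL-4, by 1.04 ± 0.15, Il21r by 0.58, the inhibitor gene Socs1 by 0.43 and Stat5b by 0.36, of which 1 was called without E2AKO 2 and 2 without E2AKO 1, DKO 2 or DKO 3.

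Of 20 listed genes of NKT and cytotoxic cells on the array, only 10 were bright enough to be tested. Of these 10, 5 rose and 5 did not pass (median 0.36). Cd226, an activating adhesion receptor, read 6.82 and 7.73 in E2AKO and 10.42, 10.75 and 11.01 in DKO, an 11.0-fold rise (3.45 ± 0.29, limma adjusted p = 2.79e-05). Nkg7, a cytotoxic granule protein gene below the 40th percentile in both E2AKO arrays, rose by 1.90 ± 0.28 and Ctsw, a protease gene of cytotoxic cells, by 1.48 ± 0.22. Zbtb16, which encodes the PLZF factor of innate-like T cells, read 6.21 and 6.33 in E2AKO and 7.04, 7.06 and 7.46 in DKO and rose by 0.92 ± 0.15 (adjusted p = 0.00269). The fifth was Cd160, at 0.62 ± 0.16, which was below the 40th percentile in every WT and E2AKO array.

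Of 13 tested factors of the CD4 and CD8 lineages, 1 rose and 2 fell (median -0.08). Runx3, which represses Cd4 in CD8 lineage cells, read 7.53 and 7.21 in E2AKO and 9.43, 9.04 and 9.65 in DKO. Every DKO array exceeded both E2AKO arrays, and the rise of 2.00 ± 0.25 was called (limma adjusted p = 0.000394). Myb, a factor that supports DP survival and rearrangement, read 11.91 and 11.97 in E2AKO and 10.32, 10.62 and 10.47 in DKO and fell by 1.47 ± 0.12 (adjusted p = 2.79e-05). Gata3, a CD4 lineage factor, differed by -0.54 ± 0.15 (limma adjusted p = 0.0493), and the call was lost in 11 of the 20 alternative settings, where the adjusted p reached 0.23. The other 10 factors did not pass, among them Tox at 0.43 and Patz1 at -0.39.

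Of 20 other T-lineage factors, 8 fell and 2 rose (median -0.26), with 4 falls without E2AKO 1 and 5 without E2AKO 2, DKO 1 or DKO 2. Bcl6, a repressor active in DP cells, fell by 1.34 ± 0.19, Gfi1, a zinc-finger repressor, by 0.80 ± 0.11 and Nfatc3, a calcium-regulated factor, by 0.78 ± 0.13. Rora, a nuclear receptor gene of the ROR family, rose by 1.90 ± 0.30 (limma adjusted p = 0.0018), with DKO arrays from 7.84 to 9.14, the highest being DKO 3, against 6.32 and 6.53 in E2AKO. The second that rose was Fli1, an ETS factor, by 0.39.

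Of 22 tested survival and apoptosis genes, 2 fell and 20 did not pass (median -0.09), a share of 9.1% beside the 9.07% called over all genes. Bcl2l1, the gene of the Bcl-xL protein that keeps DP thymocytes alive, read 10.42 and 10.54 in E2AKO and 8.88, 9.09 and 8.92 in DKO. The groups were more than 1 log2 unit apart, and the fall of 1.52 ± 0.12 (limma adjusted p = 2.07e-05) left 34.9% of the E2AKO intensity. Bmf, a pro-apoptotic gene, fell by 1.47 ± 0.24 from 8.95 and 9.68 to 8.23, 7.61 and 7.69. Bcl2, the survival gene of mature T cells, differed by -0.65 ± 0.20 and did not pass (adjusted p = 0.0722).

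Among 23 migration and adhesion genes, 7 rose and 5 fell (median 0.07), and 3 fell without E2AKO 2. In addition to Ccr7, S1pr1 and Cd226, Itgb7, an integrin chain of gut homing, rose by 1.56 ± 0.20, Ccr4, a receptor of medullary chemokines, by 1.40 ± 0.31 and Itga4, an integrin alpha chain, by 0.70 ± 0.13. Beside Plxnd1, Sema7a, a membrane semaphorin gene, fell by 2.00 ± 0.11 (limma adjusted p = 1.55e-06) from 9.60 and 9.65 to 7.71, 7.72 and 7.45. Cxcr4, the receptor of cortical thymocytes, fell by 0.60 ± 0.15.

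The largest fall of all named genes was in metabolism. Slc7a11, the cystine transporter subunit whose promoter is shown above, read 10.13 and 9.61 in E2AKO and 6.07, 7.58 and 6.63 in DKO. DKO 2 was the highest of the 3 and still more than 2 log2 units below the lower E2AKO array. The fall was 3.11 ± 0.33 (limma adjusted p = 0.000158), leaving 11.6% of the E2AKO intensity. It was the single fall among 18 genes of cystine, serine and one-carbon metabolism, of which 1 rose, the glutathione synthesis gene Gclm (0.43 ± 0.11). The other 16 did not pass, where 9.07% of all genes were called. Of 12 glycolysis genes, 3 rose and 9 did not pass (median 0.26), and 1 rose without DKO 2: Aldoa, an aldolase gene, by 0.81 ± 0.14, Ldha, a lactate dehydrogenase gene, by 0.52 ± 0.13, and the glucose transporter gene Slc2a3 by 0.50 ± 0.11.

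Outside the lists, Iftap, an intraflagellar transport gene, fell by 2.98 ± 0.34, F13a1, a coagulation factor chain, by 2.93 ± 0.14 (limma adjusted p = 5.85e-07), Fmnl2, a formin of the actin skeleton, by 2.64 ± 0.17, and Dhrs3, a retinal reductase, by 2.61 ± 0.32. F13a1 read 10.91 and 10.70 in E2AKO and 7.92, 8.03 and 7.66 in DKO, with groups far apart. Smoc1, Ldlrad3 and Myzap fell by 2.14, 2.04 and 1.99. Trav7n-5, a TCR alpha variable segment, fell by 2.44 ± 0.55, lost its call without E2AKO 2 or DKO 3, and belongs to a family of near-identical copies that a probe may not separate. Large rises included Gria3, a glutamate receptor subunit (2.85 ± 0.23), Atp8b4, a phospholipid-transporting ATPase gene (2.83 ± 0.14), Tent5c, a poly(A) polymerase gene (2.76 ± 0.16), Card6 (2.74 ± 0.18) and Elovl6, a fatty acid elongase (2.64 ± 0.14). Of these, Gria3, Atp8b4 and Card6 were below the 40th percentile in both E2AKO arrays, and Gria3 in all 7 WT, E2AKO and HEBKO arrays, so that it entered the test through DKO alone. Samhd1, a dNTP hydrolase gene, rose by 2.53 ± 0.34 with DKO arrays from 7.95 to 9.53.

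None of 26 S phase genes and none of 22 mitosis genes was called by limma, where 1 and 0 had an unadjusted p under 0.05 against 21.8% of all genes tested. Groups did not overlap for 1 S phase gene and no mitosis gene, against 40.2% of all genes, and the medians were 0.04 and -0.14. The 2 E2AKO arrays lay 0.26 above and below their mean for the S phase list and 0.32 for the mitosis list. A shift of that size between DKO and E2AKO could therefore go uncalled, and these counts do not show that cycling was unchanged. Of 14 cyclin and CDK inhibitor genes, Ccnd3, the D-type cyclin of thymocytes, fell by 0.71 ± 0.16, Rbl2, a pocket protein gene, fell by 0.53 ± 0.11 and Cdk6 rose by 0.60 ± 0.13. Of 13 stress response genes, Trp53inp1, a p53 target, fell by 0.48 ± 0.10 and 12 did not pass (median -0.07). Beside both lists, 9.07% of all genes tested were called. Within DKO, array 3 was lowest for the mitosis list (0.51 below the E2AKO mean), against -0.05 and 0.15 for DKO 1 and 2.

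**Figure D4:**
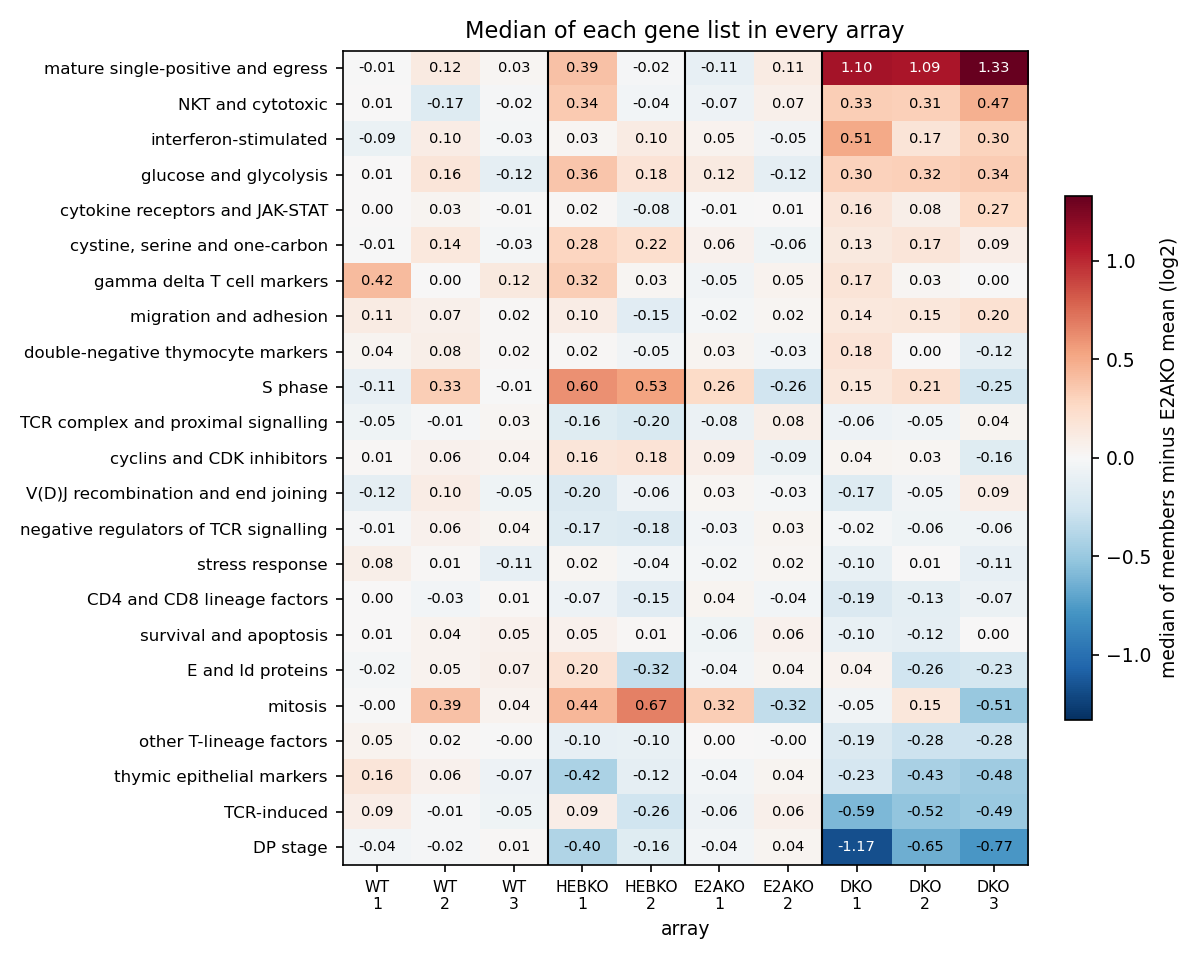
Median of the tested members of each list in every array, as the log2 difference from the mean of the 2 E2AKO arrays, with red above and blue below. The DKO columns reach 1.33 for the mature single-positive list and -1.17 for the DP stage list, and the S phase and mitosis lists are 0.60 and 0.53, and 0.44 and 0.67, in HEBKO 1 and 2.

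Markers of other cells were read beside these groups. Of 9 double-negative thymocyte markers, Dtx1, a Notch target, rose by 1.61 ± 0.16 and Il2ra rose as given above, Notch3 fell by 0.46 ± 0.12 and 6 did not pass, with a summed intensity of 1230 to 1307 in E2AKO and 1606 to 1960 in DKO. Of 6 thymic epithelial markers, Cldn4 fell by 0.55 ± 0.14 and Epcam by 0.45 ± 0.13, and Epcam's call was lost in 11 of the 20 alternatives. The sum of that list spanned 2155 to 4652 in E2AKO and 1275 to 2915 in DKO. Itgam, a myeloid integrin, fell by 0.91 ± 0.17. None of 2 B cell, 4 dendritic, 3 erythroid and 5 gamma delta T cell markers tested was called by limma, where 1, 0, 1 and 0 had an unadjusted p under 0.05 against 21.8% of all genes. The part of these cells in the differences was not tested.

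HEBKO against WT removes HEB while E2A is present and shares no array with DKO against E2AKO, so the contrasts were set side by side. HEBKO differed from WT in 119 genes (0.906% of those tested, 36 up and 83 down). Of these, 86 were also called in DKO against E2AKO, all in the same direction, which is 72.3% of the HEBKO calls and 7.22% of the DKO calls. Genes that fell in DKO had a median of -0.66 in DKO minus E2AKO and -0.33 in HEBKO minus WT, and 94.2% had the same sign in both. Genes that rose had medians of 0.62 and 0.24, and 84.2% had the same sign. The same sign was seen in 65.3% of all genes tested. These genes were chosen by their calls in DKO minus E2AKO, which favours large values there, so the medians are not a comparison of effect sizes. As a description across genes, which are not independent, the contrasts correlated at r = 0.54 and rho = 0.486.

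The test of the difference between these contrasts is their interaction, DKO minus E2AKO minus the change from WT to HEBKO. It was called for 83 genes (limma adjusted p under 0.05, 0.632% of those tested), with 67 positive and 16 negative. Of the genes that rose in DKO, 65 had a called positive interaction, and of those that fell, 16 had a called negative one. No called interaction opposed the direction of the change in DKO. The interaction contains the DKO minus E2AKO difference by which these genes were called. A shared sign was thus favoured by construction and is not a separate result. The count was 27 without E2AKO 1 and 122 without HEBKO 1, 50 without WT 3 and 54 without WT 2. Of 37 named genes with a called interaction, 14 kept it whichever of the 10 arrays was left out: Atp8b4, Card6, Ccr7, Cd6, Elovl6, F13a1, Gria3, Ifi208, Il18r1, Il18rap, Plxnd1, Sema7a, Slfn5 and Tent5c. Ccr7, above the 40th percentile in every array, differed by 0.20 between HEBKO and WT and by 2.61 between DKO and E2AKO, an interaction of 2.40 ± 0.30 (adjusted p = 0.00334). S1pr1, at -0.02 with E2A present, had an interaction of 2.74 ± 0.46, with 1 HEBKO and 1 E2AKO array below that percentile. For Il18r1 the interaction was 3.40 ± 0.18, but its 0.30 between HEBKO and WT compares readings that all lay below it. The same holds for Gria3 and Il18rap, which like Il18r1 entered the test through DKO alone. Card6 and Atp8b4 lay below that percentile in every WT and E2AKO array, and Card6 in 1 HEBKO array as well. The interactions of S1pr1, Il18r1, Gria3, Il18rap, Card6 and Atp8b4, but not that of Ccr7, are therefore limited by the low end of the scale.

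Among the falls, Cd5 differed by -0.15 with E2A present and had an interaction of -1.95 ± 0.31 (limma adjusted p = 0.0129), and Cd6 by -0.17 with an interaction of -1.47 ± 0.17. That -0.15 averages HEBKO arrays on either side of WT, as Cd5 read 10.77 and 9.98 in HEBKO against 10.38 to 10.68 in WT. F13a1, Plxnd1, Sema7a, Cd4 and Bcl2l1 differed by -0.77, -1.07, -0.72, -0.67 and -0.65 with E2A present and still had called interactions of -2.16, -1.49, -1.27, -1.22 and -0.87. Lig4 and Myb, at -0.35 and -0.39 with E2A present, had called interactions of -1.16 and -1.08. The limma adjusted p was 0.0283 for Cd4, 0.0464 for Bcl2l1, 0.0138 for Lig4 and 0.0159 for Myb. Unlike F13a1, Plxnd1, Sema7a and Cd6, these 4 genes and Cd5 were not among the 14 that kept their interaction whichever array was left out. Rag1 and Rag2 had interactions of -1.12 (95% interval -1.68 to -0.56, adjusted p = 0.101) and -1.54 (-2.31 to -0.77, adjusted p = 0.0992), which did not pass. Myzap, Smoc1 and Ldlrad3 differed by -1.83, -1.66 and -1.57 with E2A present and had interactions of -0.16, -0.48 and -0.47, none of which passed. Myzap was below the 40th percentile in 1 HEBKO and 2 DKO arrays, so that both of its falls may be understated and its interaction is limited by the low end of the scale. The interaction was also called for 2 genes that were not called in DKO against E2AKO, Tdrp and Carns1, at 1.12 and 0.73. In the rising genes HEBKO 1 often lay nearer to DKO than HEBKO 2 did: Gimap3 read 7.79 and 6.60, and Ccr7 8.17 and 7.25, in the 2 HEBKO arrays. Some falls split in the same way, as Rag1 read 12.98 and 13.53, Rag2 9.93 and 10.80 and Cd4 11.34 and 11.77 in HEBKO 1 and 2. For Cd5 and for Nr4a1 (10.35 and 9.12) HEBKO 2 was the nearer.

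**Figure D5:**
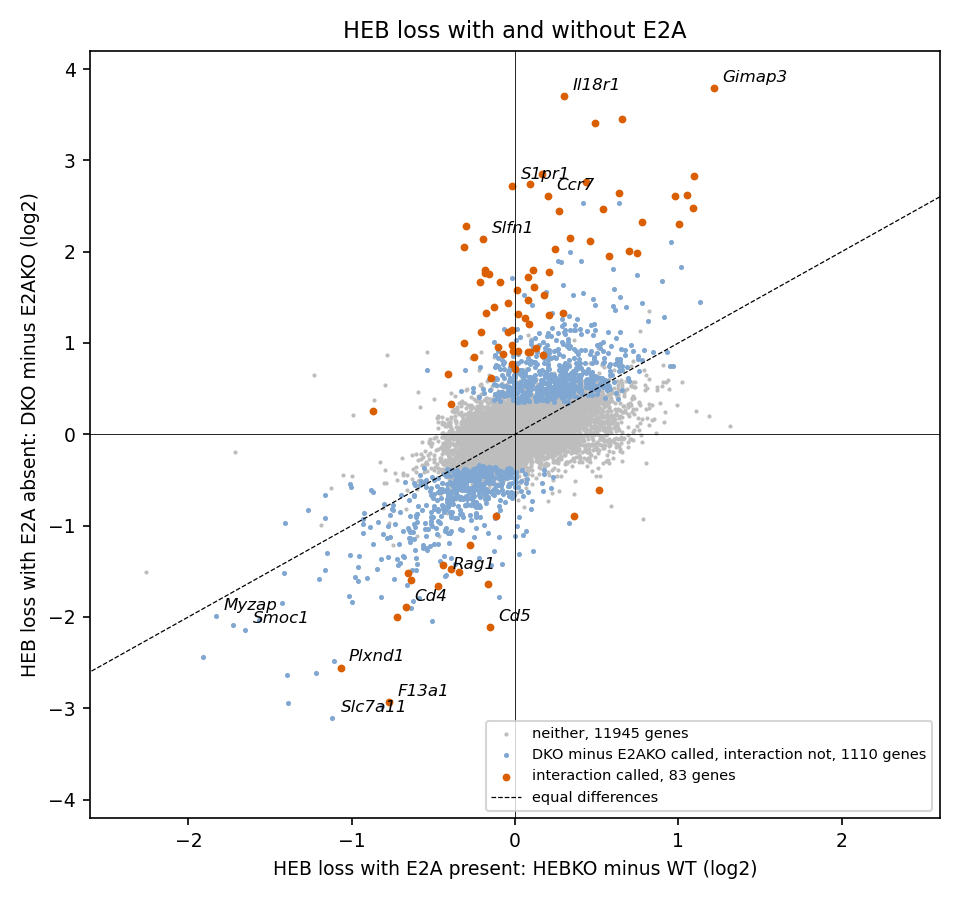
Log2 difference of DKO from E2AKO (vertical, HEB loss without E2A) against that of HEBKO from WT (horizontal, HEB loss with E2A), 1 point per gene for 13138 genes. Orange points are the 83 genes with a called interaction and the dashed line marks equal differences. Il18r1, S1pr1 and Cd5 lie near 0 on the horizontal axis, and Smoc1 lies near the line.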

How the data were processed

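Expression was read on Affymetrix arrays hybridised with RNA of single mice, 1 array per mouse. The authors deposited 1 intensity per probe set and array, normalised by RMA per the labels and on a linear scale by its values. Other processing by the authors is not given in the sources used here. Of 34760 probe sets, 21640 had 1 gene symbol, 1321 several and 11799 none in the platform annotation, and only the first were used. Intensities were taken to log2, the probe set with the highest mean stood for its gene, and genes above the 40th percentile in at least 2 arrays were kept. Fewer arrays give less precision, and E2AKO had 2.

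limma 3.58.1 (R 4.3.3) was fitted with 1 mean per genotype over all 10 arrays (residual degrees of freedom 6, prior 5.68, median gene SD 0.139), and p-values were adjusted over the 13138 genes by Benjamini-Hochberg. Calls are genes whose adjusted p was under 0.05. Errors are standard errors of the fitted difference. Alternatives were no filter or the 60th percentile, renewed quantile or median scaling, the mean of probe sets, limma's trend and robust options, array weights, the 5 arrays alone, a replicate block, a sex term, a 2-fold minimum and each array left out. The fit was tested on simulated data. The labels number mice within a genotype and name no litter or batch, so p-values measure the spread between mice of these groups. The correlation of same-numbered arrays' deviations ran from -0.292 to 0.484, so numbers were not taken as pairs.

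The members and the 28 lists (453 genes) were chosen with earlier results of these data known. Genes named are Tcf3, Tcf12, the 18 largest rises and falls, up to 5 members per list by size of difference, the 8 largest interactions of each sign and a set of stage genes. Chosen after their values were seen were the other miRNA, Gimap, Slfn, Ms4a and Ifi genes, Kcnma1, Trim12a, Tdrp, Carns1, and list members beyond 5, such as Foxo1, Klf2, Egr1, Cd69 and Cxcr4. Sequences are from RefSeq (GRCm38.p6), and the table used holds no Cd4 entry.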

Additional observations from a re-analysis of the deposited data

Results flagged for a closer look

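The size of the HEB effect differed by E2A status, tested by the interaction, for 83 genes. Among the named genes, positive interactions (log2) were 3.40 for Il18r1, 2.92 for Ms4a4b, 2.80 for Cd226, 2.74 for S1pr1, 2.68 for Gria3, 2.64 for Card6, 2.58 for Ifi208, 2.57 for Gimap3, 2.40 for Ccr7, 2.33 for Tent5c, 2.17 for Ifi206, 2.00 for Elovl6, 1.95 for Il18rap, 1.93 for Ms4a6c, 1.89 for Il2ra, 1.73 for Atp8b4, 1.63 for Il12rb2, 1.57 for Cpm, 1.499 for Dtx1 and 1.39 for Gpr65. Those of Slfn5, Slfn1, Ms4a6b and Slfn2 were 2.36, 2.33, 1.30 and 1.13, and those of Tdrp and Carns1 1.12 and 0.73. Gria3, Il18r1 and Il18rap were below the 40th percentile in all 7 WT, E2AKO and HEBKO arrays, so their interactions rest on DKO readings alone. Card6, Atp8b4 and Ms4a6c were below it in every WT and E2AKO array, and Card6 and Ms4a6c in 1 HEBKO array as well.

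Negative interactions were -2.16 for F13a1, -1.95 for Cd5, -1.49 for Plxnd1, -1.47 for Cd6, -1.27 for Sema7a, -1.26 for Papss2, -1.22 for Cd4, -1.18 for Mr1, -1.16 for Lig4, -1.08 for Myb and -0.87 for Bcl2l1. Papss2, which encodes a sulfate donor synthase, is the gene of this group whose HEBKO arrays were on average above WT (0.36) while DKO was below E2AKO (-0.90). Mr1, which presents vitamin metabolites to innate-like T cells, fell by 1.66 ± 0.16 in DKO against E2AKO.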

How the results depend on the processing

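The 1191 genes kept their sign in all 20 alternatives wherever they were tested. Counts of calls ran from 1075 with a sex term to 1780 with array weights, and 241 at a minimum of 2-fold. Leaving out 1 array gave 585 to 1293 calls. Rises numbered 1025 with array weights, 123 at 2-fold and 313 to 757 with 1 array left out, and falls 118 at 2-fold and 265 to 539. Interactions ran from 27 to 122 with 1 array left out, 22 to 86 of them positive and 5 to 36 negative. A fit with the replicate number as a block gave 1531 calls and 43 interactions (35 positive, 8 negative), but labels do not pair the arrays. With 2 E2AKO arrays, each carries much of the group mean, and a gene dim in 1 group has only a rough fold.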

Other observations

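Other gene families were read after their values had been seen. Of the Ifi200 family, which encodes DNA-binding proteins of the interferon response, Ifi206, Ifi208 and Ifi209 rose in DKO against E2AKO by 2.44 ± 0.22, 2.28 ± 0.25 and 1.02 ± 0.14, and Ifi203 differed by 0.56 and did not pass. Of 11 interferon-stimulated genes on the fixed list, only Irf9 was called (0.74 ± 0.21, limma adjusted p = 0.0485), and its call was lost in 10 of 20 alternatives. Over all genes tested, 9.07% were called. The list still leaned upward, with 9 members higher in DKO and 2 lower (median 0.32). By limma, 6 rose with an unadjusted p under 0.05, against 21.8% of all genes in either direction. Ifit1 read 5.95 and 5.80 in E2AKO and 8.08, 6.60 and 6.22 in DKO, and did not pass. Of the Schlafen genes, which restrain T cell growth, Slfn1, Slfn2 and Slfn5 rose by 2.14, 1.21 and 2.05, with HEBKO minus WT at -0.20, 0.08 and -0.31, while Slfn8 and Slfn9 did not pass. Of the Ms4a genes, Ms4a6b and Ms4a6c rose by 2.30 and 2.47 beside Ms4a4b. Ms4a6c was below the 40th percentile in every WT and E2AKO array, so its rise may be understated.

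The potassium channel gene Kcnma1 differed by 4.34 ± 1.73, more than any other gene tested, and was not called (limma adjusted p = 0.162). It read 12.99 and 12.19 in DKO 1 and 2 and 4.97 in DKO 3, against 4.53 and 6.89 in E2AKO and 4.69 to 4.84 in WT. Trim12a, with a difference of -1.51, also split within genotypes.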
